A study of Homo sapiens with 4 samples.

Results

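The genes examined here encode the TGF-beta, BMP and activin signalling pathway: ligands and their storage proteins, receptors, SMADs, antagonists, nuclear repressors and the ID genes. The rule lists symbols and uses no measured value, although earlier results of these data were known when it was written, and 57 of the 60623 genes in the count tables met the rule. All libraries are from BICR10 cells, an established human line of head and neck cancer (HNC). Cells of this single line were transduced with lentivirus carrying a control hairpin (shControl, 2 libraries) or a hairpin against YEATS2 (shYEATS2, 2 libraries), so both groups carry a hairpin and differ in its target. YEATS2 is a reader of acylated histone H3, and the comparison asks how transcript levels differ once it is depleted. The study used a pair of YEATS2 hairpins, and the labels do not say which hairpin each shYEATS2 library carried. The paper describes the replicates of its experiments in general as biological. Neither its account of the RNA sequencing nor the labels say whether the libraries of a group came from separate cultures. The p-values therefore measure the spread between these libraries, which may be technical.

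Ligands of the family are secreted as dimers and bring together type II and type I receptor kinases on the cell surface. TGF-beta and activin receptors phosphorylate SMAD2 and SMAD3, whereas BMP receptors phosphorylate SMAD1, SMAD5 and SMAD9, and both sets enter the nucleus with SMAD4. The pathway restrains growth of normal epithelium, and in carcinomas it is known for driving epithelial-to-mesenchymal transition, invasion and matrix production.

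YEATS2 itself was measured at 66.1 and 66.7 CPM (counts-per-million) in shControl and at 29.2 and 29.1 CPM in shYEATS2, which left 0.440 of the control level (log2 fold change −1.19, SE 0.08, adjusted p = 3.6e-21). Each fold change is shYEATS2 over shControl, CPM are scaled by the trimmed mean of M values (TMM), and each adjusted p comes from the quasi-likelihood test of edgeR, adjusted by Benjamini-Hochberg over all 17058 genes tested. A gene was called when its adjusted p was under 0.05. Counts on genes totalled 39824898 to 47297970 in shControl and 11334133 to 24072396 in shYEATS2, so depth and condition cannot be told apart. Keratins KRT8 and KRT18 and stratifin (SFN) were abundant, and the 12 epithelial and squamous markers summed to 547 to 552 CPM in shControl and 332 to 361 CPM in shYEATS2. Of these 12, 2 had too few counts to be tested, among them the squamous marker TP63, with at most 3 counts in any library. Fibroblast markers were also abundant. Their sum over 9 genes was 7205 to 7295 CPM in shControl and 2221 to 2361 CPM in shYEATS2, and 7 of the 8 tested fell. Of the epithelial and squamous markers, 7 of the 10 tested fell and 1 rose, where 23.6% of all tested genes fell. Endothelial markers summed to 35.7 to 36.7 CPM in shControl and 19.04 to 20.4 CPM in shYEATS2, most of it KDR, with TIE1 at 0. Of the 3 endothelial markers tested, 1 fell and 1 rose. Blood cell markers summed to at most 1.85 CPM, with CD2, CD3E, CD68 and HBB at 0. In bulk RNA, fewer cells of a type and less RNA per cell cannot be told apart.

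Of the 57 members, 47 passed the filter on low counts. In shYEATS2 cells 14 of these were lower and 16 were higher, so 30 of 47 (63.8%) were called, where 46.2% of all tested genes were called. By direction, 29.8% of the tested members fell against 23.6% of all tested genes, and 34.0% rose against 22.6%. The median log2 fold change of the members was 0.13 (quartiles −0.32 and 0.43), and that of all tested genes was −0.01 (quartiles −0.31 and 0.32). For 16 members both shYEATS2 libraries read lower than both shControl libraries, and for 23 they read higher, whereas 36.3% of all tested genes lay below and 35.2% lay above. Changes of at least 0.5 on the log2 scale were called for 16 members, 8 in each direction (background 22.7%, with 10.6% lower and 12.2% higher). Among these, INHBE passed the filter on low counts only through the shYEATS2 libraries, and ACVR1C only through the shControl libraries. The lowered members included the abundant transcripts TGFBI, ID1, ID2, ID3 and TGFB1. The raised members included the ligand genes INHBA and TGFB2, the receptor genes TGFBR1 and TGFBR2, and the inhibitors SMAD7 and BAMBI. When libraries were scaled by their totals alone, the median of all genes moved to 0.13 and the split of the members became 12 lower and 21 higher, so that 63.6% of the calls were higher rather than 53.3%. The members named below as called kept their direction under this scaling, and LTBP3 and SMAD5 lost the call. The small negative fold changes of LTBP4, BMPR1A, ACVR2A, BMPR2, SMAD2 and NOG, which were not called, turned positive.

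**Figure D1:**
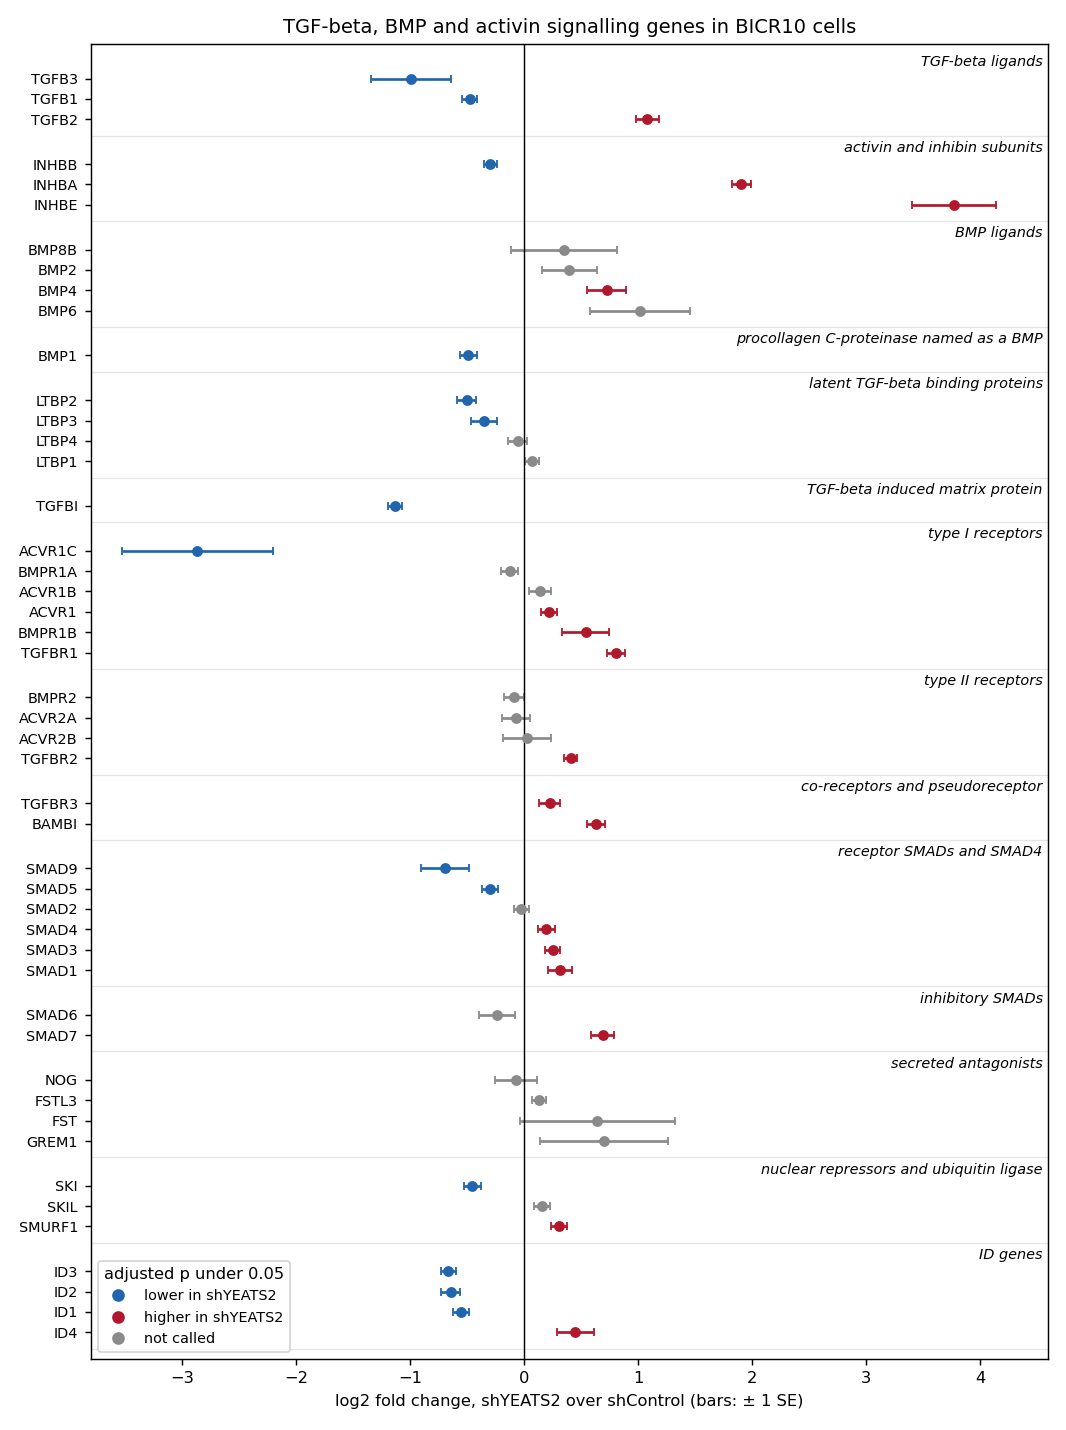
Log2 fold change (shYEATS2 over shControl, x axis) of the 47 tested members, grouped by role, with bars of 1 SE. Blue points fell (14), red points rose (16) and grey points were not called. Roles such as the TGF-beta ligands, the type I receptors and the ID genes hold both blue and red points.

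**Figure D2:**
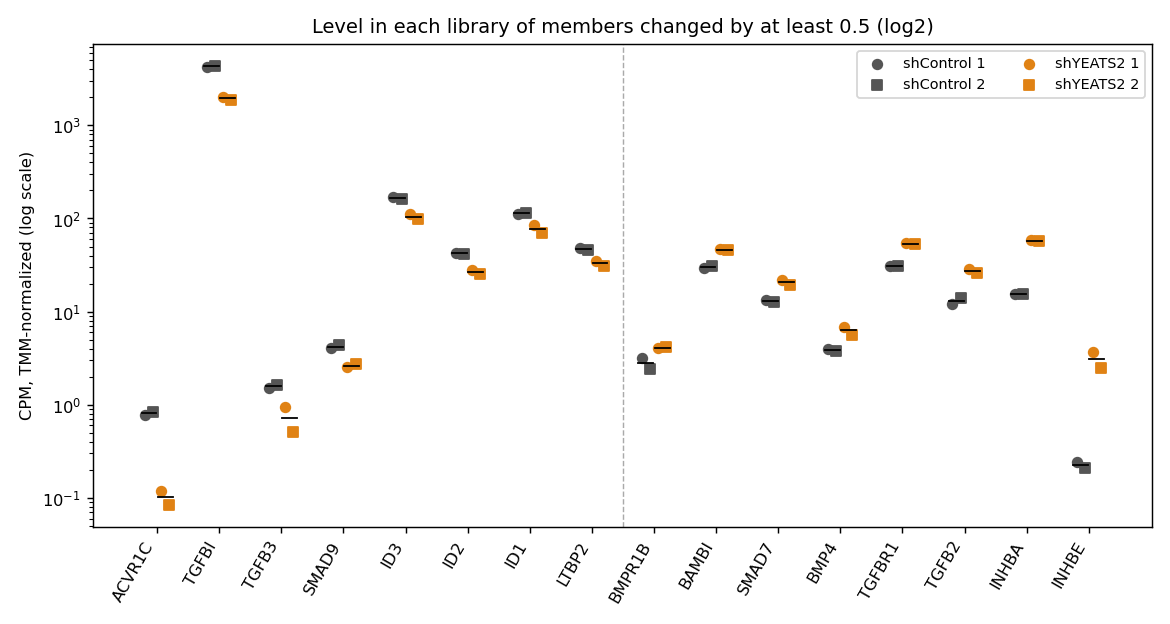
Level in each library (CPM on a log axis) of the 16 members called with a log2 change of at least 0.5, with lowered members left of the dashed line and raised members right of it. Short lines are group means of 2 libraries. The genes were chosen by call and size of change in these same libraries. That the shControl and shYEATS2 libraries do not overlap in any of the 16 is therefore no further support. Of all tested genes, 36.3% lay below and 35.2% lay above. INHBE passed the filter on low counts only through shYEATS2, and ACVR1C only through shControl.

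The TGF-beta ligand genes moved in opposite directions. TGFB1, the main TGF-beta of epithelial tumours, was measured at 143 and 138 CPM in shControl and at 108 and 94.0 CPM in shYEATS2 (log2 fold change −0.47, SE 0.07, adjusted p = 9.0e-09). TGFB2, whose product depends on a co-receptor for efficient binding, went from 11.98 and 13.9 CPM to 28.5 and 25.7 CPM (log2 fold change 1.08, SE 0.10, adjusted p = 1.3e-14). The rare TGFB3 fell from 1.52 and 1.64 CPM to 0.946 and 0.509 CPM (log2 fold change −0.99, SE 0.35, adjusted p = 0.016). In none of the 3 genes did the groups overlap, where 36.3% of all tested genes lay below and 35.2% lay above. The lower shYEATS2 value of TGFB3 rests on 6 counts, and its call was lost in 4 of 11 alternative analyses. Leaving out a shYEATS2 library moved its log2 fold change to −1.64 (without library 1) or −0.74 (without library 2, call lost), and the call was also lost without shControl library 2 (−0.94). Per kilobase of exon, which allows levels of different genes to be compared, TGFB2 made up 4.29% and 5.09% of the summed TGFB1, TGFB2 and TGFB3 level in shControl but 12.4% and 12.8% in shYEATS2. The sum itself was 46.2 and 45.0 CPM per kilobase in shControl and 37.9 and 33.1 in shYEATS2, so TGFB1 remained the most abundant of the 3 transcripts in all libraries. Of the exonic bases of TGFB2, 22.7% are shared with another gene on the same strand (TGFB2-OT1) and 11.6% with an antisense gene, and the strand setting of the counting is not given in the sources used here.

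Since TGFB1 and TGFB2 moved apart, the 250 bases before each start site are printed here. They are from RefSeq (GRCh38.p14), in the direction of transcription, and the capitals mark matches to 3 motifs searched on both strands: CAGAC, the SMAD box bound by SMAD3 and SMAD4, GGCGCC, a GC-rich element bound by the BMP SMADs, and TGANTCA, the AP-1 site. The TGFB1 window is 76.8% G or C and holds none of the motifs, and the TGFB2 window is 50.4% G or C and holds CAGAC at positions −243 and −53 from the start. An antisense transcript of TGFB2 also covers the TGFB2 window.
TGFB1 promoter (chr19:41353923-41354172, minus strand): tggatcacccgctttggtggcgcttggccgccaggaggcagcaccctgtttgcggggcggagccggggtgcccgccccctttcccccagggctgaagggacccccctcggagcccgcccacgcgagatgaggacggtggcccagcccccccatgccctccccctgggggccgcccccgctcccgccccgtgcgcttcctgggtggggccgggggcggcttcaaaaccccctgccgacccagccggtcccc
TGFB2 promoter (chr1:218345086-218345335, plus strand): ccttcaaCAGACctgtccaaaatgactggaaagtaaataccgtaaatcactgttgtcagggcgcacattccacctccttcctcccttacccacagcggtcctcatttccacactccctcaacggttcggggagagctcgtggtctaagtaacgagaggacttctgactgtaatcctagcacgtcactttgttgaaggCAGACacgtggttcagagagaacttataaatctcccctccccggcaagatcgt

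Activin and inhibin subunits showed the largest rises. INHBA, which encodes the subunit of activin A, stood at 15.42 and 15.44 CPM in shControl and at 58.0 and 57.4 CPM in shYEATS2 (log2 fold change 1.90, SE 0.08, adjusted p = 2.9e-30). INHBB, which encodes the subunit of activin B, went the other way, from 290.2 and 289.9 CPM to 244 and 228 CPM (log2 fold change −0.29, SE 0.06, adjusted p = 3.1e-05). Per kilobase, INHBB was 91.6% and 91.1% of the INHBA and INHBB sum in the shYEATS2 libraries, and the INHBA share went from 2.01% and 2.02% to 8.42% and 8.87%. INHBE, a subunit made mainly in liver and known to rise under endoplasmic reticulum stress, had 11 and 8 counts in shControl and 93 and 29 counts in the less deeply sequenced shYEATS2 libraries (log2 fold change 3.77, SE 0.37, adjusted p = 1.1e-13). On the CPM scale this was 0.242 and 0.212 against 3.67 and 2.46, and 16.4% of the exonic bases of INHBE overlap a gene on the opposite strand. INHBE passed the filter on low counts only through the shYEATS2 libraries, so its call depends on the group where it was high. INHBC had at most 4 counts in any library and was not tested. The window before the RefSeq start of INHBA, the most raised member at a mean of at least 5 CPM, is 42.8% G or C and holds none of the 3 motifs. GENCODE also lists INHBA transcripts that start further upstream, in whose introns this window lies.
INHBA promoter (chr7:41703091-41703340, minus strand): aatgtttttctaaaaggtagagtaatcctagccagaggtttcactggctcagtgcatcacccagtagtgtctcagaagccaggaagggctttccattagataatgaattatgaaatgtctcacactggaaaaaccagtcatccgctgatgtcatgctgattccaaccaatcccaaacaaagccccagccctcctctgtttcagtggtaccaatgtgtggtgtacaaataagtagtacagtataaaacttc

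**Figure D3:**
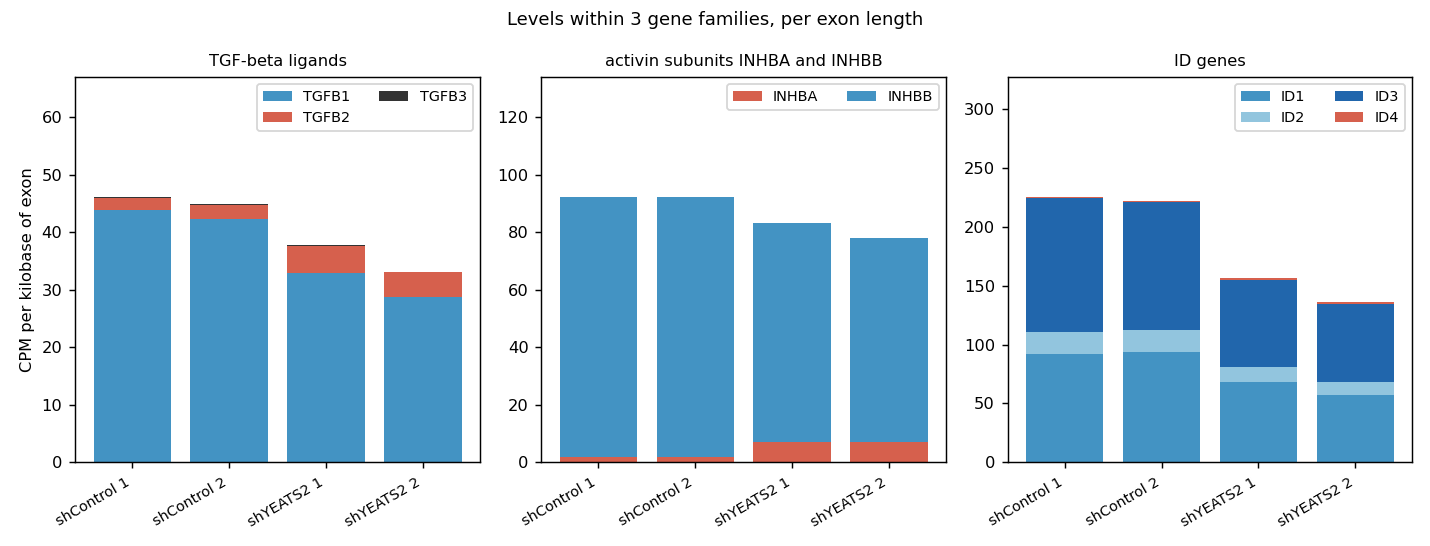
Stacked level of each transcript (CPM per kilobase of exon, y axis) in the 4 libraries for the TGF-beta ligands, for INHBA and INHBB, and for the ID genes. The TGFB2 and INHBA segments are larger in both shYEATS2 libraries, and the ID total falls from 222.4 to 225.7 in shControl to 136 to 156 in shYEATS2.

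BMP ligand transcripts were scarce. BMP4, a ligand for the BMP receptors and the most abundant of them per kilobase, rose from 3.94 and 3.81 CPM to 6.90 and 5.68 CPM (log2 fold change 0.73, SE 0.17, adjusted p = 2.7e-04), and this call was lost without shYEATS2 library 1. Its level per kilobase in shControl was 1.25 CPM, and 16.3% of its exonic bases overlap a gene on the opposite strand. The other ligands tested were not called: BMP2, known from bone formation, had a log2 fold change of 0.40 (adjusted p = 0.18), BMP6, which regulates hepcidin, of 1.02 (adjusted p = 0.051) and BMP8B of 0.35 (adjusted p = 0.57). Reads of BMP8B can be confused with those of its near-identical paralog BMP8A. Both shYEATS2 libraries lay above both shControl libraries for BMP2, BMP4, BMP6 and BMP8B, as they did for 35.2% of all tested genes. BMP5 had at most 5 counts and BMP8A at most 3. BMP3, BMP7, BMP10 and BMP15 had no count in any library. With 3 counts as the limit that an absent count allows, these 4 genes could have been present at up to 0.0661 CPM in the deepest library and up to 0.254 CPM in the shallowest.

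The genes that process, store and anchor the ligands fell or were not called. BMP1, which despite its name is the proteinase that trims procollagen and releases latent complexes, was measured at 71.0 and 71.9 CPM in shControl and at 52.9 and 48.5 CPM in shYEATS2 (log2 fold change −0.49, SE 0.07, adjusted p = 4.1e-08). Among the latent TGF-beta binding proteins, LTBP1, which tethers latent TGF-beta to the matrix, was the most abundant per kilobase and had 220.3 and 229 CPM in shControl and 237 and 233 CPM in shYEATS2 (log2 fold change 0.07, adjusted p = 0.36). LTBP2, which binds fibrillin and not latent TGF-beta, fell from 48.4 and 46.3 CPM to 35.01 and 31.2 CPM (log2 fold change −0.50, SE 0.08, adjusted p = 3.0e-07). LTBP3, which also binds latent TGF-beta, read 17.8 and 21.1 CPM in shControl and 17.0 and 12.5 CPM in shYEATS2 (log2 fold change −0.35, SE 0.11, adjusted p = 0.0098), so that 1 library of each group read nearly the same. Without shYEATS2 library 2 its log2 fold change was −0.20 and without shControl library 2 it was −0.24, and both fits lost the call, as did DESeq2 and library totals alone. Without shYEATS2 library 1 it was −0.64. LTBP4, which helps to assemble elastic fibres, was not called (log2 fold change −0.05, adjusted p = 0.62).

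TGFBI, a secreted matrix protein named for its induction by TGF-beta, was by far the most abundant member, at 555 CPM per kilobase in shControl, above 99.4% of the tested genes. Its level was 4226 and 4342 CPM in shControl and 2022 and 1888 CPM in shYEATS2, which left 45.6% (log2 fold change −1.13, SE 0.06, adjusted p = 1.1e-25). The gene lies at chr5:136028988-136063818 on the plus strand (GENCODE release 44). Each alternative analysis kept the call, with log2 fold changes from −1.20 to −0.998. The summed fibroblast markers fell alongside TGFBI (7205 to 7295 CPM against 2221 to 2361 CPM), led by the collagens COL1A1, COL1A2 and COL3A1. So did the summed epithelial and squamous markers (547 to 552 CPM against 332 to 361 CPM). The endothelial sum, most of it KDR, also fell (35.7 to 36.7 CPM against 19.04 to 20.4 CPM), but 1 of the 3 tested endothelial markers fell and 1 rose. The part of these markers in the TGFBI result was not tested. The window before its start is 72.8% G or C and holds GGCGCC at position −111.
TGFBI promoter (chr5:136028738-136028987, plus strand): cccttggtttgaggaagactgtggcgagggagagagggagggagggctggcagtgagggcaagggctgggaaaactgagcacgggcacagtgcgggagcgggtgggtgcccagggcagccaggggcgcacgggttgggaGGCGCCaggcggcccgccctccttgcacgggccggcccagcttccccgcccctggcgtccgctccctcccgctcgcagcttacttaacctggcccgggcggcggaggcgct

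Of the type I receptor kinases, 3 rose and 1 fell among the 6 tested, where 22.6% of all tested genes rose and 23.6% fell. TGFBR1, the TGF-beta type I receptor, went from 30.5 and 30.6 CPM to 54.1 and 53.0 CPM (log2 fold change 0.81, SE 0.08, adjusted p = 4.5e-14). ACVR1, a type I receptor for BMPs and the most abundant of the group per kilobase, went from 59.5 and 64.5 CPM to 72.1 and 72.2 CPM (log2 fold change 0.22, SE 0.07, adjusted p = 0.0072). For TGFBR1 and ACVR1 both shYEATS2 libraries lay above both shControl libraries, as they did for 35.2% of all tested genes. The TGFBR1 call held in each alternative. That of ACVR1 was lost in 2 of 12, without the filter on low counts and without shControl library 1 (log2 fold change 0.16). BMPR1B, a BMP type I receptor, was measured at 3.19 and 2.41 CPM in shControl and at 4.06 and 4.15 CPM in shYEATS2 (log2 fold change 0.54, SE 0.21, adjusted p = 0.028). Its call was lost in 5 of 12 alternatives, among them without shControl library 2 (0.35), without shYEATS2 library 1 (0.55) and without shYEATS2 library 2 (0.52). ACVR1C, which encodes the nodal and activin receptor ALK7, had 35 and 32 counts in shControl but 3 and 1 in shYEATS2 (log2 fold change −2.86, SE 0.66, adjusted p = 2.2e-04). ACVR1C passed the filter on low counts only through the shControl libraries, so its call depends on the group where it was high. From summed counts scaled by depth, the shYEATS2 level of ACVR1C was 0.134 of the control level, with an exact 95% interval of 0.0354 to 0.359 that covers counting error only. ACVR1B, the main activin type I receptor, and BMPR1A, a widely expressed BMP receptor, were not called (log2 fold changes 0.14 and −0.12). ACVRL1, the endothelial type I receptor, had at most 2 counts.

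Type II receptors, which phosphorylate the type I receptors, were not called apart from TGFBR2. TGFBR2, the TGF-beta type II receptor, was the most abundant receptor transcript per kilobase and was measured at 148.0 and 147.8 CPM in shControl and at 198 and 194 CPM in shYEATS2 (log2 fold change 0.41, SE 0.06, adjusted p = 4.7e-08). The transcripts of both chains of the TGF-beta receptor were therefore higher in shYEATS2 libraries. ACVR2A and ACVR2B, which bind activins, had log2 fold changes of −0.07 and 0.03, and BMPR2, the BMP type II receptor, of −0.09 (adjusted p from 0.42 to 0.93). For these 3 genes the libraries of the groups overlapped. TGFBR3, the co-receptor betaglycan that presents TGF-beta 2 to its receptors, was higher (log2 fold change 0.22, SE 0.09, adjusted p = 0.035). Its call was lost in 5 of 12 alternatives, among them without either shControl library and without shYEATS2 library 2 (log2 fold changes 0.15 to 0.29). BAMBI, a pseudoreceptor that lacks the kinase and blocks signalling, rose from 29.2 and 30.8 CPM to 46.5 and 46.3 CPM (log2 fold change 0.63, SE 0.08, adjusted p = 5.4e-10). ENG, the endothelial co-receptor endoglin, had at most 8 counts and was not tested.

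The SMAD transcripts shifted among themselves. In the TGF-beta and activin branch, SMAD3 rose (log2 fold change 0.25, SE 0.07, adjusted p = 0.0012), with 78.4 and 76.6 CPM in shControl and 93.5 and 90.7 CPM in shYEATS2, and SMAD2 was not called (log2 fold change −0.02). In the BMP branch, SMAD1 was higher (log2 fold change 0.32, SE 0.11, adjusted p = 0.013), whereas SMAD5 and SMAD9 were lower. The SMAD1 call was lost in 5 of 12 alternatives, among them without shControl library 1 (log2 fold change 0.24) and without shYEATS2 library 2 (0.24). SMAD5, the most abundant SMAD per kilobase in shControl though not in shYEATS2, where SMAD3 was, had 79.3 and 89.6 CPM in shControl and 65.0 and 73.4 CPM in shYEATS2 (log2 fold change −0.30, SE 0.07, adjusted p = 4.5e-04). SMAD9 fell from 4.07 and 4.34 CPM to 2.52 and 2.71 CPM (log2 fold change −0.69, SE 0.21, adjusted p = 0.0046). Neither gene's groups overlapped, but both calls were lost in 2 of 12 alternatives. For SMAD5 these were library totals alone and the fit without shControl library 2 (−0.21), and for SMAD9 they were DESeq2 and the fit without shYEATS2 library 1 (−0.64). The SMAD3 call was lost without shControl library 2 (0.23). Summed per kilobase over these 5 receptor-regulated SMADs, the level was 21.1 and 22.4 CPM in shControl and 21.2 and 22.3 CPM in shYEATS2, so the sums overlapped between the groups. The merged exons of SMAD2 span 36426 bases, so its mean of 74.6 CPM in shControl weighs little in this sum and its shares. Within that sum SMAD5 went from 41.6% and 44.2% to 33.9% and 36.4%, and SMAD3 from 37.1% and 34.1% to 44.1% and 40.7%. SMAD4, the shared partner, was higher by 0.20 on the log2 scale (SE 0.07, adjusted p = 0.027). Its call was lost in 5 of 12 alternatives, among them without either shControl library (0.17 and 0.21) and without shYEATS2 library 2 (0.10).

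SMAD7, the inhibitory SMAD that TGF-beta itself induces, rose from 13.2 and 12.7 CPM to 21.9 and 19.5 CPM (log2 fold change 0.69, SE 0.10, adjusted p = 6.7e-08), and each alternative kept this call. SMAD6, the inhibitory SMAD of the BMP branch, was not called (log2 fold change −0.23, adjusted p = 0.23). Its shYEATS2 libraries both read lower than its shControl libraries, as they did for 36.3% of all tested genes. Secreted antagonists were not called, which holds for all 4 tested, where 46.2% of all tested genes were called. FSTL3, an activin-binding follistatin relative and the most abundant of them, was measured at 138 and 141 CPM in shControl and at 155 and 150.4 CPM in shYEATS2 (log2 fold change 0.13, adjusted p = 0.080). FST and GREM1, which bind activin and BMPs, had at most 16 and 20 counts and log2 fold changes of 0.64 and 0.70, and NOG, a BMP trap, had one of −0.07. When 1 library was left out, the values ranged from 0.0022 (without shControl library 2) to 2.09 (without shControl library 1) for FST and from 0.038 (without shYEATS2 library 2) to 1.41 (without shYEATS2 library 1) for GREM1, with no call. CHRD, another BMP trap, had at most 3 counts and was not tested.

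SKI, a nuclear repressor of SMAD complexes, fell from 78.3 and 78.1 CPM to 59.7 and 53.8 CPM (log2 fold change −0.45, SE 0.07, adjusted p = 1.7e-07). Its relative SKIL was not called (log2 fold change 0.16, adjusted p = 0.058). SMURF1, a ubiquitin ligase that targets BMP SMADs and receptors, was higher by 0.31 on the log2 scale (SE 0.07, adjusted p = 1.5e-04), with 11.7% of its exonic bases shared with a gene on the opposite strand.

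The ID genes encode inhibitors of basic helix-loop-helix factors and are the best known direct targets of BMP signalling. All but ID4 were lower in shYEATS2 cells. ID3, the most abundant of them per kilobase, went from 170.3 and 162 CPM to 110.4 and 98.3 CPM (log2 fold change −0.66, SE 0.06, adjusted p = 8.0e-14). ID1 went from 113 and 116 CPM to 84.1 and 70.5 CPM (log2 fold change −0.55, SE 0.07, adjusted p = 9.7e-10), and ID2 from 42.2 and 41.9 CPM to 28.1 and 25.3 CPM (log2 fold change −0.64, SE 0.08, adjusted p = 1.5e-09). The groups overlapped in none of the 3 genes, and each of them kept its call in each alternative. ID4 was higher, at 4.32 and 4.81 CPM in shControl and 5.88 and 6.78 CPM in shYEATS2 (log2 fold change 0.45, SE 0.17, adjusted p = 0.020), but lost its call in 5 of 12 alternatives, among them without shControl library 1 (0.37) and without shYEATS2 library 2 (0.36). Per kilobase, the summed level of the ID genes was 225.7 and 222.4 CPM in shControl and 156 and 136 CPM in shYEATS2. ID4 made up at most 1.29% of this sum in any library. The ID3 and ID1 windows are printed because these genes fell together, and that of ID4 for contrast, chosen after its values were seen. ID3 holds CAGAC at position −147 and ID4 at position −205, whereas ID1 holds none of the 3 motifs. The window of ID2 holds none either and is not printed, because much of it lies in an untranslated exon of another ID2 transcript.
ID1 promoter (chr20:31605039-31605288, plus strand): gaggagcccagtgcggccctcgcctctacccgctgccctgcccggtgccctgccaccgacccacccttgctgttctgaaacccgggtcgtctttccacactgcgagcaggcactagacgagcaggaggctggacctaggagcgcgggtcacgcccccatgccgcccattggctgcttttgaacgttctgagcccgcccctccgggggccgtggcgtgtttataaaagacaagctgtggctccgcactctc
ID3 promoter (chr1:23559502-23559751, minus strand): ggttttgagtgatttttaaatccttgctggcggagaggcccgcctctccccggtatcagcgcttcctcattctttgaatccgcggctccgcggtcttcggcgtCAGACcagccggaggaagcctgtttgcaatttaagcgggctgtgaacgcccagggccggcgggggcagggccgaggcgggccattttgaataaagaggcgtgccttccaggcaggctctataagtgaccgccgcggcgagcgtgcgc
ID4 promoter (chr6:19837120-19837369, plus strand): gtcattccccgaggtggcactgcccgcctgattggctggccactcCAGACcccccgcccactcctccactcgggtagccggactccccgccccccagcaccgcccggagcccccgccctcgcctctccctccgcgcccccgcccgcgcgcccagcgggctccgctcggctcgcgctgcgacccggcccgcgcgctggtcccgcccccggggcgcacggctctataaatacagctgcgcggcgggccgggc

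RefSeq start sites were given for 49 of the 57 members. CAGAC was present in the 250 bases before the start of 17 of them (34.7%) and of 37.8% of all 27305 promoters, GGCGCC in 15 (30.6%) and 16.1%, and TGANTCA in 2 (4.08%) and 6.60%. CAGAC stood in the windows of the raised SMAD7, BAMBI, TGFBR1, TGFB2 and BMP4 and also in those of the lowered ID3 and TGFB3. Windows of members that were not called held it too, among them LTBP1 and BMPR2. Among the other raised type I receptors and SMADs, ACVR1 held CAGAC at position −74 and GGCGCC at −190, SMAD3 GGCGCC at −136 and −106, SMAD4 GGCGCC at −125 and SMAD1 TGANTCA at −45, and BMPR1B held none. A match is a description of the letters and not evidence of binding.

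**Figure D4:**
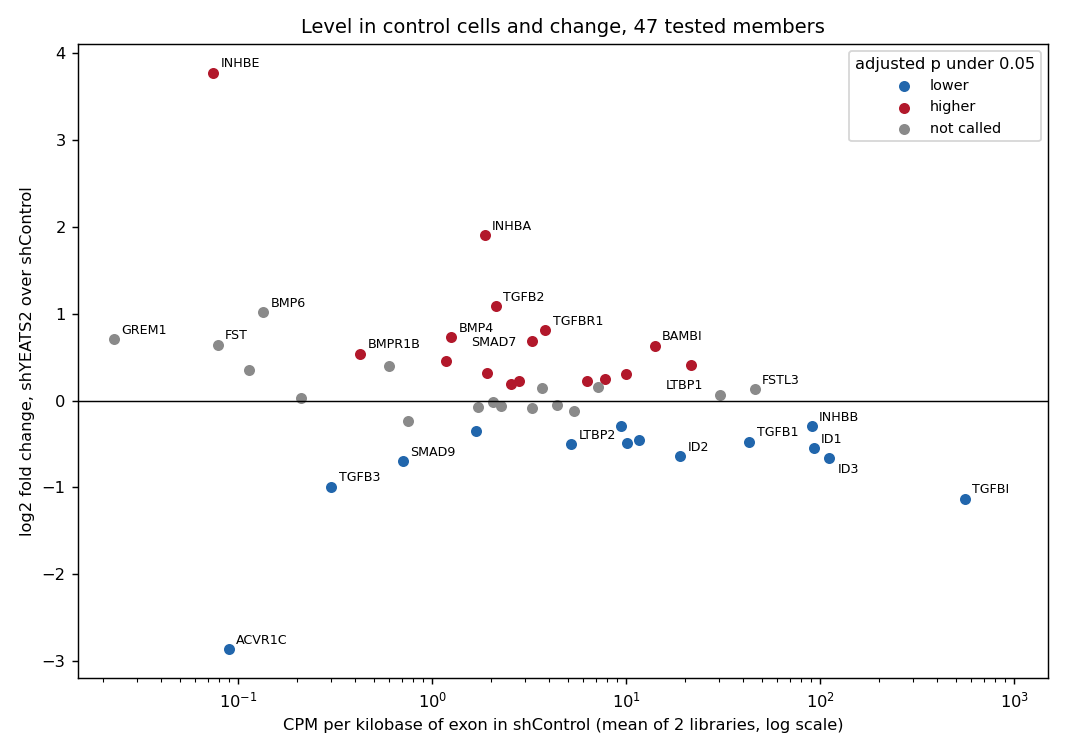
Log2 fold change (y axis) against the level in shControl (CPM per kilobase of exon, mean of 2 libraries, log x axis) for the 47 tested members, coloured by call. The 3 most abundant members, TGFBI, ID3 and ID1, lie below 0, and the largest rises, INHBE and INHBA, started at 0.0745 and 1.86 CPM per kilobase. INHBE passed the filter on low counts only through the shYEATS2 libraries.

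A wider list of 149 genes of the same pathway was described in the same way, and its counts stand against 23.6% of all tested genes lower, 22.6% higher and 46.2% called. Of 112 that passed the filter, 37 (33.0%) fell and 28 (25%) rose, and the median fold change was −0.08 on the log2 scale. Ligand activation and storage had 8 of 11 tested genes lower and none higher at the threshold (median −0.77). DCN, a proteoglycan that binds TGF-beta, went from 321 ± 7.28 to 83.7 ± 2.76 CPM (SD, n = 2 libraries), and TLL1, a proteinase related to BMP1, from 23.3 ± 0.991 to 6.48 ± 0.768 CPM. DCN is also 1 of the 9 fibroblast markers whose sum fell, and the part of those markers in this count was not tested. Among further ligands 3 of 6 rose and none fell, with GDF15, a stress-induced ligand, from 1.43 ± 0.190 to 17.8 ± 1.14 CPM (log2 fold change 3.64, SE 0.16) and GDF11 from 8.63 ± 0.619 to 15.2 ± 0.207 CPM.

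Antagonists outside the member list moved both ways (3 of 9 lower, 2 higher), with CRIM1, a BMP-binding membrane protein, higher and TWSG1, a secreted BMP modulator, lower (log2 fold changes 0.82 and −0.40). Of the 5 further receptors and co-receptors, 1 fell and 1 rose, the BMP co-receptor RGMB, by 1.01. Of the regulators of receptors and SMADs, 5 of 25 fell and 5 rose, so 40% were called, near the share of all genes. The 2 that changed most there were the ubiquitin ligases NEDD4L, from 28.6 ± 0.525 to 67.3 ± 3.52 CPM, and SMURF2, from 29.8 ± 1.84 to 61.6 ± 1.26 CPM, both of which act on SMADs and receptors. Nuclear partners of SMADs split into 3 lower (20%) and 5 higher (33.3%) of 15, and the RUNX factors moved apart: RUNX1 rose (log2 fold change 1.13, SE 0.08) and RUNX3 fell (log2 fold change −1.16, SE 0.11).

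Transcripts known to be induced by TGF-beta showed no common direction, with 11 lower and 9 higher of 28 tested and a median of 0.01. CCN2 and HMGA2 rose most among them (log2 fold changes 2.36 and 1.72), whereas the collagens COL1A1 and COL1A2, which are fibroblast markers as well, fell (log2 fold changes −1.65 and −1.67). Of the transcripts known to be induced by BMP, 6 (46.2%) fell and 3 (23.1%) rose among 13 tested (median −0.18), where 23.6% of all genes fell and 22.6% rose. UNC5B rose from 10.8 ± 1.54 to 61.6 ± 6.86 CPM, and DLX3 fell from 22.6 ± 0.368 to 10.6 ± 0.713 CPM.

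**Figure D5:**
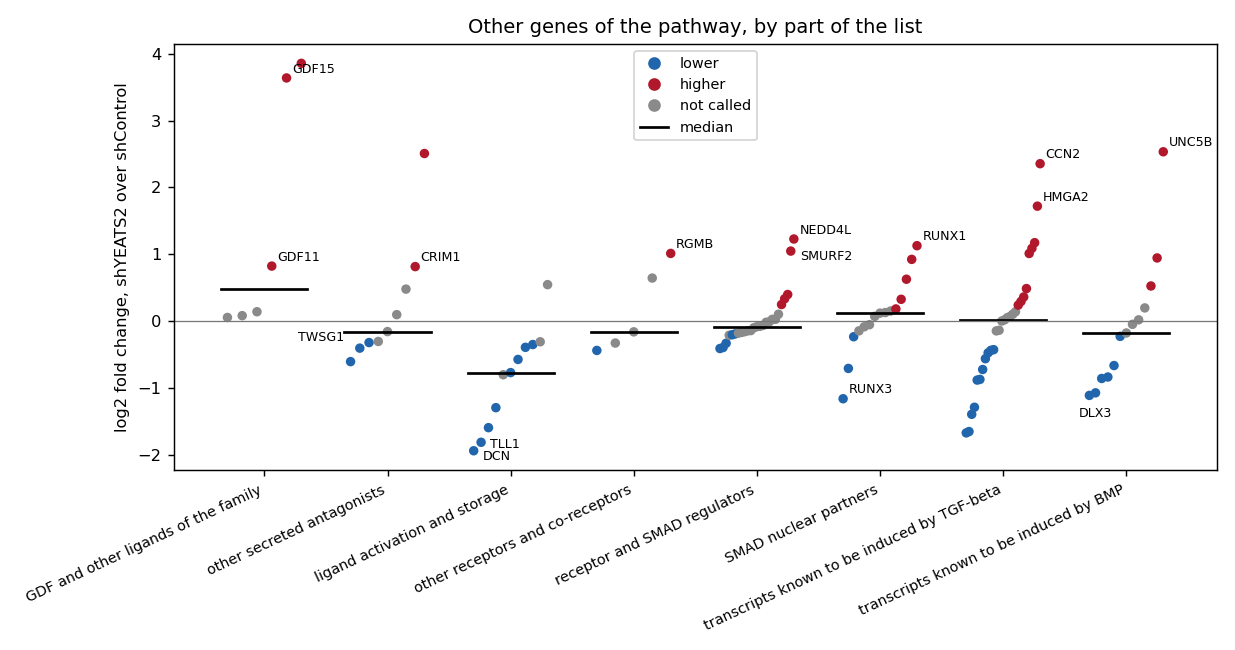
Log2 fold change (shYEATS2 over shControl, y axis) of the 112 tested genes of the wider pathway list, in 8 groups, with the median of each group as a black line. Blue genes fell (37), red genes rose (28) and grey genes were not called. The median of ligand activation and storage is −0.77, and that of the transcripts known to be induced by TGF-beta is 0.01.

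Of the 30 called members, 18 (10 lower and 8 higher) kept the call in every alternative analysis that tested them, and 12 lost it in at least 1 of 12. None of the 30 turned direction in these analyses. An exact permutation test on 1 gene cannot go below p = 0.333 with 4 libraries, so each call rests on the spread shared across genes.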

How the data were processed

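The 4 libraries were mRNA of BICR10 cells, made with a stranded kit from TRIzol RNA after puromycin selection, with paired reads of 150 bp. STAR (to GRCh38) and HTSeq were used by the authors for alignment and counting per gene, and the deposited values are whole counts without normalization. Which annotation release and which strand setting HTSeq used is not given in the sources used here. Tallies of reads not given to a gene made up 15.3% to 16.5% of these tallies and the counts on genes together, and were left out.

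Positions, merged exon lengths and overlaps came from GENCODE release 44, in which 60295 of the 60623 gene identifiers and all 57 members were found. Per-kilobase levels divide CPM by the merged exon length of all transcripts, which understates genes with long rare exons such as SMAD2. Genes were kept by filterByExpr (17058), scaled by TMM (factors 0.950 to 1.05) and tested with edgeR 4.0.16 in R 4.3.3 (glmQLFit with robust = TRUE, glmQLFTest), without covariates. Each ± is an SD over 2 libraries. Replicates differed by more than counting noise (chi-square per degree of freedom 5.95 and 5.39), with a common biological coefficient of variation of 4.95%. The steps were tested on simulated data in which few genes changed, equally in both directions. The scaling was therefore not tested for changes as widespread as those called here. Alternatives were other scalings, filters, thinning, DESeq2 1.42.0, limma-voom (limma 3.58.1), a replicate block and leaving out each library.

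Each tested member was named once. Values in every library were given for members called with a log2 change of at least 0.5, the most abundant of each role per kilobase and those whose call another scaling ended, and values of a few others were added. Of the wider list, the 2 called genes of largest change whose mean reached 5 CPM were named in each group, and COL1A1 and COL1A2 were added after their values were seen. Promoters of the raised type I receptors and SMADs met the rule for printing and were described by motif only, and TGFB1 was printed outside it. The members and lists were chosen with earlier results of these data known.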

Additional observations from a re-analysis of the deposited data

How the results depend on the processing

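Across 12 alternatives the members stayed at 11 to 14 lower and 10 to 21 higher, against 14 and 16. Without the filter on low counts 10 members were higher. With library totals alone 2567 of all genes were lower and 5441 higher, against 4019 and 3857 (members 12 and 21, other pathway genes 29 and 37). DESeq2 called 11 members lower and 11 higher. The members' median of 0.13 became 0.26 with library totals alone, 0.068 with at least 10 counts in every library, 0.090 after thinning to the smallest library, and 0.089 to 0.10 when a library was left out. The median of the other pathway genes, −0.08, became 0.056 with library totals alone, −0.12 without the filter and −0.11 to −0.066 when a library was left out. The cause was not tested, except that other filters change which genes are tested. Leaving out a library gave 11 to 14 members lower and 11 to 16 higher, and YEATS2 stayed between −1.23 and −1.05 in all alternatives.

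Replicate numbers only name the libraries (correlation of their deviations −0.018). With a replicate block 14 members were lower and 18 higher, and 4142 and 3870 of all genes, and no called member lost its call. BMP6, LTBP1, ACVR1B, BMPR1A, BMPR2, FSTL3 and SKIL gained a call in at least 1 alternative. Depth limits the members with few counts: 10 were not tested, and TGFB3, INHBE and ACVR1C had as few as 6, 8 and 1 counts in a library.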
